A study of Mus musculus with 12 samples.

Results

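Sfi1 (gene 78887, mm10, chromosome 11, 3131850 to 3203347) encodes a centrosomal protein, and the peaks of dimethylated histone H3 lysine 36 (H3K36me2) in and around it were examined in the somatosensory cortex of adult mice aged 2.5 months. The peaks were all rows of the authors' 2 deposited lists that overlapped an interval from 19.2 kb below the lower end of the gene to 33.6 kb above its upper end (lower and upper refer to chromosome coordinates). This gave 28 of the 231 peaks in the control (Ctrl) list and 27 of the 3491 peaks in the conditional knockout (cKO) list. The gene was chosen by its peak bases, which exceed those of any other gene in both lists, so the numbers, bases and enrichments of its peaks are given as a description and were not tested. The outer ends of the interval coincide with the first and the last of the 27 cKO peaks.

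The study compared H3K36me2 immunoprecipitates and inputs from cKO mice labelled Nsd1Nex-cKO with those from floxed controls, in 4 groups of 3 libraries each. In each control group of 3, 2 libraries were labelled Nsd1fl/+ and 1 was labelled Nsd1fl/fl, so the controls also carried floxed alleles. Cre under the Nex promoter is active in excitatory forebrain neurons that have left the cell cycle, and the other cells of the cortex keep Nsd1. The whole dissociated tissue was profiled, so a change in part of the cells and a smaller change in all of them cannot be told apart. All 6 libraries of a genotype named the same list, and peak names in the Ctrl list carried the prefix WT. Values per library were not analysed here, so no value carries a replicate error, and read depth is unknown.

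H3K36me2 is laid down by histone methyltransferases including NSD1, NSD2, NSD3 and ASH1L. It typically covers gene bodies and the space between genes in broad domains, and it is read by the DNA methyltransferase DNMT3A. SFI1 is a long repeat protein that binds centrins, small calcium-binding proteins of the centriole. Its yeast relative is required for duplication of the spindle pole body, the fungal counterpart of the centrosome, and in animal cells the protein sits at the distal end of centrioles. Neurons no longer divide, and their centrioles anchor the primary cilium.

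Of the RefSeq promoter windows (GRCm38.p6, 250 bases before to 50 after a gene's start) within the interval, 1 lay under a peak, and it is shown for that reason. It belongs to Gm33862, a long noncoding RNA gene inside Sfi1, and spans chr11:3136826-3137125 on the + strand. It lay wholly inside a cKO peak at 3136644 to 3137573 and overlapped 0 Ctrl peaks. CG dinucleotides, the sites of DNA methylation, are in capitals.

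Gm33862: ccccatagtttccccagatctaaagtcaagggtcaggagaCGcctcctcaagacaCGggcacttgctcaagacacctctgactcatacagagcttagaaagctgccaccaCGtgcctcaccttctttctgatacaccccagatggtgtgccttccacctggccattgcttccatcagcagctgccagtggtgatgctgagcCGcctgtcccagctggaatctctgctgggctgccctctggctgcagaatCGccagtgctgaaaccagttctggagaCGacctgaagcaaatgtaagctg

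The window held 6 CG dinucleotides (searched as CG, which reads the same on both strands, without overlaps), and its G and C content was 55.7%. Over all 32851 promoter windows of that table, 94.6% held at least 1 CG, and the median was 7. The window was therefore close to the middle of the table in CG number. The windows of Eif4enif1 and Gm51877, whose starts lie near the upper end of Sfi1, overlapped 0 peaks of either list. The promoter of Sfi1 itself was not analysed here.

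Sfi1 carried peaks along nearly its whole length in both genotypes. The gene body, 71.5 kb long, held 24 Ctrl peaks over 14576 bp (20.4% of the body) and 23 cKO peaks over 12280 bp (17.2%). The gene with the next most peak bases in controls was Sp140, a nuclear body protein gene, with 6 peaks over 3120 bp, which is 5.42% of its body. In cKO it was Gm38510, a predicted protein-coding gene on chromosome 1, with 13 peaks over 6781 bp, or 4.41% of its body. Sfi1 thus led both lists by a wide margin in bases, and the Ctrl margin was the wider of the pair. It did not lead either list in share of the body. In controls this share was 54.5% in Gm51572 (2 peaks over 1690 bp) and 25.4% in Pisd-ps1. In cKO it was 18.3% in Gm33862 and 17.8% in Pisd-ps1.

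**Figure D1:**
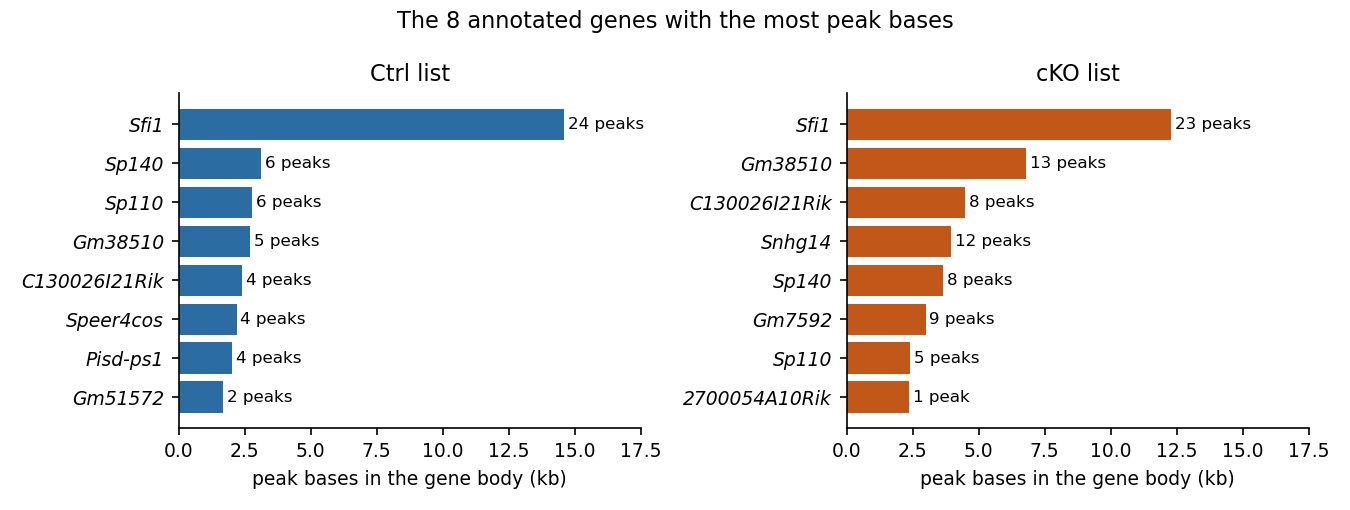
Peak bases within annotated gene bodies (kb, horizontal axis) for the 8 genes with the most in each deposited list, with the number of peaks beside each bar. Sfi1 leads with 14576 bp in the Ctrl list and 12280 bp in the cKO list, against 3120 bp and 6781 bp for the next gene.

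The interval around Sfi1 made up a much larger part of the control list. Its 28 peaks were 12.1% of all Ctrl peaks and held 16590 bp, 19.9% of all Ctrl peak bases. The 27 cKO peaks were 0.773% of that list and held 14577 bp, 1.45% of its bases. As deposited, the number and the bases of peaks were thus close between the lists here, whereas the lists as wholes differed in length. A −log10 q of at least 2, which rests on an adjustment made within each list, left 1 Ctrl peak of 311 bp and 5 cKO peaks over 2166 bp. On chromosome 11 the Ctrl list had 32 peaks, of which only 4 lay outside the interval, and the cKO list had 192, of which 165 lay outside.

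Both lists began on this chromosome at the interval, with 0 peaks below it. Whether the stretch below could hold peaks at all was not examined, so nothing is read from that 0. Just inside the edges were the cKO peak of 289 bp that ends at 3112905, with a fold enrichment (the authors' ratio of immunoprecipitate to local background) of 1.96, and the cKO peak of 204 bp that starts at 3236729, with a fold of 3.04. Just outside, on the upper side, the next cKO peak was found after 573 kb (3809638 to 3809793, fold 2.56). The next Ctrl peak was 69.1 Mb beyond the last Ctrl member, at 72298280 to 72298447, with a fold of 1.98. The interval was drawn from its outermost cKO peaks, and the upper cKO gap was of the order of the median gap in the rest of that list, 421 kb.

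**Figure D2:**
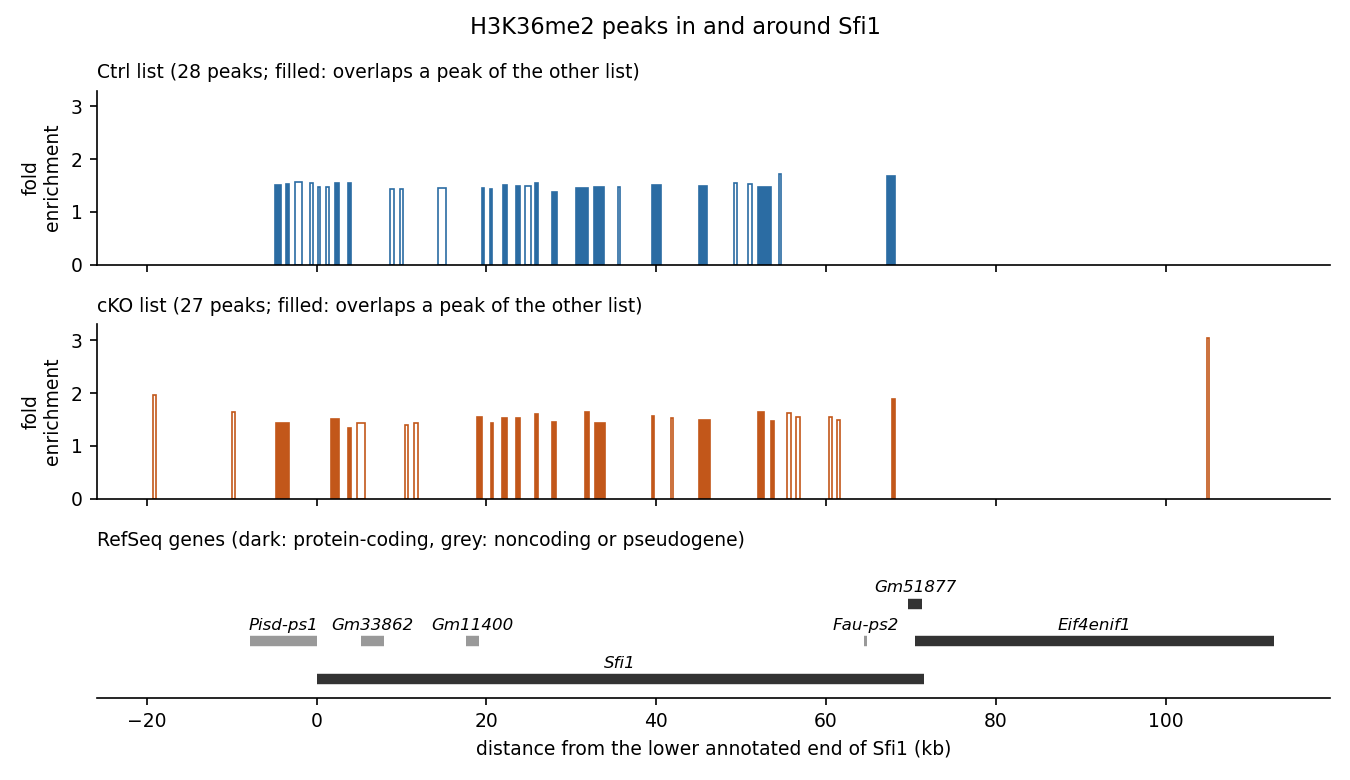
Peaks of both lists by distance from the lower annotated end of Sfi1 (kb), with bar height giving fold enrichment, bar width the peak width, and filled bars the peaks that overlap a peak of the other list. RefSeq genes are drawn beneath, and the 24 Ctrl and 23 cKO peaks of the gene body lie along almost all of Sfi1.

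Below the gene lies Pisd-ps1, a transcribed pseudogene of the phosphatidylserine decarboxylase gene Pisd (3124002 to 3131945). It held 4 Ctrl peaks over 2014 bp, which is 25.4% of its length. The first of them, at 3127012 to 3127617, opens the Ctrl peaks of the interval. The folds of these 4 were 1.51, 1.53, 1.56 and 1.54 in order of position. A single cKO peak of 1417 bp (3127136 to 3128552, fold 1.43) covered 17.8% of it and bridged the first pair of Ctrl peaks. A pair of cKO peaks lay lower still, outside annotated genes, with folds of 1.96 and 1.63.

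Gm33862, Gm11400 and Fau-ps2 lie inside Sfi1. Gm33862 (3137076 to 3139791) was overlapped by 1 cKO peak of 930 bp (fold 1.44, −log10 q 0.997) over 18.3% of its length, and by 0 Ctrl peaks. The pseudogene Gm11400 (3149476 to 3151017) was overlapped by 1 cKO peak of 573 bp (3150790 to 3151362, fold 1.55) and by 0 Ctrl peaks. Fau-ps2, a pseudogene of the ubiquitin-like and ribosomal protein gene Fau, held 0 peaks of either list.

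At the upper end, the predicted gene Gm51877 lies within Sfi1, and the neighbouring gene Eif4enif1 overlaps its end. Gm51877 held 0 peaks. Eif4enif1, which encodes a transporter of the translation factor eIF4E, held the outermost cKO peak of 204 bp and 0 Ctrl peaks. That peak lay 36.7 kb beyond the previous cKO peak and, with a fold of 3.04, was the only member of either list with a fold above 2. Its −log10 q was 0.861, so the q-value of its row was above 0.05.

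Within the gene, the peaks were unevenly spread. Counted in steps of 10 kb from the lower end, Ctrl peaks covered 19.9%, 13.0%, 27.2%, 32.8%, 19.2%, 24.1% and 9.54% of successive steps. For cKO peaks the same steps gave 21.3%, 13.3%, 21.1%, 20.3%, 16.2%, 20.4% and 10.2%. Coverage was lowest in the last of these steps in both lists and was also low in the second. The lists stood furthest apart between 30 and 40 kb, where the Ctrl list had 3282 bp and the cKO list 2028 bp in peaks.

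**Figure D3:**
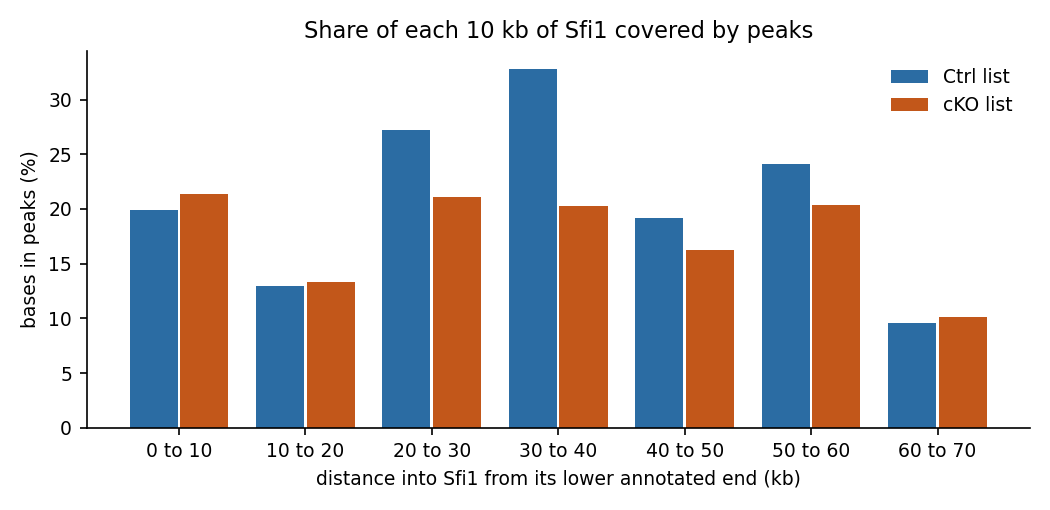
Share of bases within peaks (%) for each 10 kb of Sfi1 counted from its lower annotated end, for the Ctrl and cKO lists. The Ctrl bars range from 9.54% to 32.8% and the cKO bars from 10.2% to 21.3%.

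Gaps between neighbouring peaks had a median of 1.16 kb in the Ctrl list (27 gaps) and 1.80 kb in the cKO list (26 gaps). In the rest of the lists the median gap on a chromosome was 2.27 Mb and 0.421 Mb. The widest Ctrl gap, 12.5 kb, ran from 3186584 to 3199074. The cKO list had 4 peaks within that stretch, at 3187309 to 3187699, 3188295 to 3188818, 3192214 to 3192547 and 3193182 to 3193488. Their folds were 1.63, 1.54, 1.54 and 1.49. Conversely, the cKO list had a gap of 4.99 kb from 3128552 to 3133547 that held 4 Ctrl peaks, with folds of 1.56, 1.54, 1.47 and 1.46.

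Peaks here were wide for these lists. Widths in the Ctrl list ran from 183 to 1624 bp, and 11 of 28 peaks spanned at least 500 bp, against 20.3% of that whole list. In the cKO list they ran from 204 to 1417 bp, and 11 of 27 did, against 8.22%. Of the 7 Ctrl peaks of at least 1000 bp, 4 lay here, as did 3 of the 16 such cKO peaks. Width was part of what chose the gene, and these shares are a description.

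The widest Ctrl peak, at 3183804 to 3185427 (1624 bp, fold 1.48), was also the widest of its whole list. The next were at 3162470 to 3163882 (1413 bp, fold 1.46), 3171339 to 3172434 (1096 bp, fold 1.51) and 3164584 to 3165667 (1084 bp, fold 1.47). The fifth, at 3146123 to 3147090 (968 bp, fold 1.46), had no partner in the cKO list. All of these lie within Sfi1, and all had a −log10 q below 0.2.

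The widest cKO peak was the one in Pisd-ps1, at 1417 bp. It was followed by peaks at 3176873 to 3178196 (1324 bp, fold 1.50), 3164593 to 3165874 (1282 bp, fold 1.43), 3136644 to 3137573 (930 bp, fold 1.44) and 3133547 to 3134444 (898 bp, fold 1.50). The peak in Pisd-ps1 ranked 4 in width over the whole cKO list. The wide peaks did not always face a single partner: the Ctrl peak of 1624 bp faced a pair of cKO peaks, at 3183812 to 3184534 and 3185363 to 3185763.

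Fold enrichments were low and narrow in range. In controls the lowest was 1.37, the median 1.49 and the highest 1.72. In cKO the lowest was 1.35, the median 1.53 and the highest 3.04, or 1.89 within the gene body. Most cKO folds lay within the Ctrl range. Those outside it were 1.35 and 1.89 within the gene, and 1.96 and 3.04 in the flanks. The rest of the Ctrl list had a median of 2.29 and the rest of the cKO list a median of 2.83.

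All 28 Ctrl peaks had a fold under 2, against 39.4% of the whole Ctrl list, and 26 of 27 cKO peaks did, against 5.56%. The lowest folds of each list lay elsewhere: counted from the lowest, the first member ranked 10 in the Ctrl list and 20 in the cKO list.

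The low folds did not come with weak p-values. The −log10 p values, which the authors' caller gave for each row, had a median of 4.34 in the Ctrl members (3.36 to 6.71) and 3.99 in the rest of the Ctrl list. How the caller summarised p and q over the width of a broad peak was not examined. A low value in a wide peak is therefore not read as a failed test of that peak. In cKO the medians were 4.68 (3.70 to 7.32) and 3.80. Between a −log10 p of 5 and 6, the 6 Ctrl members had folds of 1.47 to 1.56, and 27 other Ctrl peaks had a median fold of 2.34. In the same band the 6 cKO members had folds of 1.44 to 1.63, against a median of 2.91 over 335 other cKO peaks. Read coverage of the immunoprecipitates and inputs, mappability and copy number over the locus were not analysed here.

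**Figure D4:**
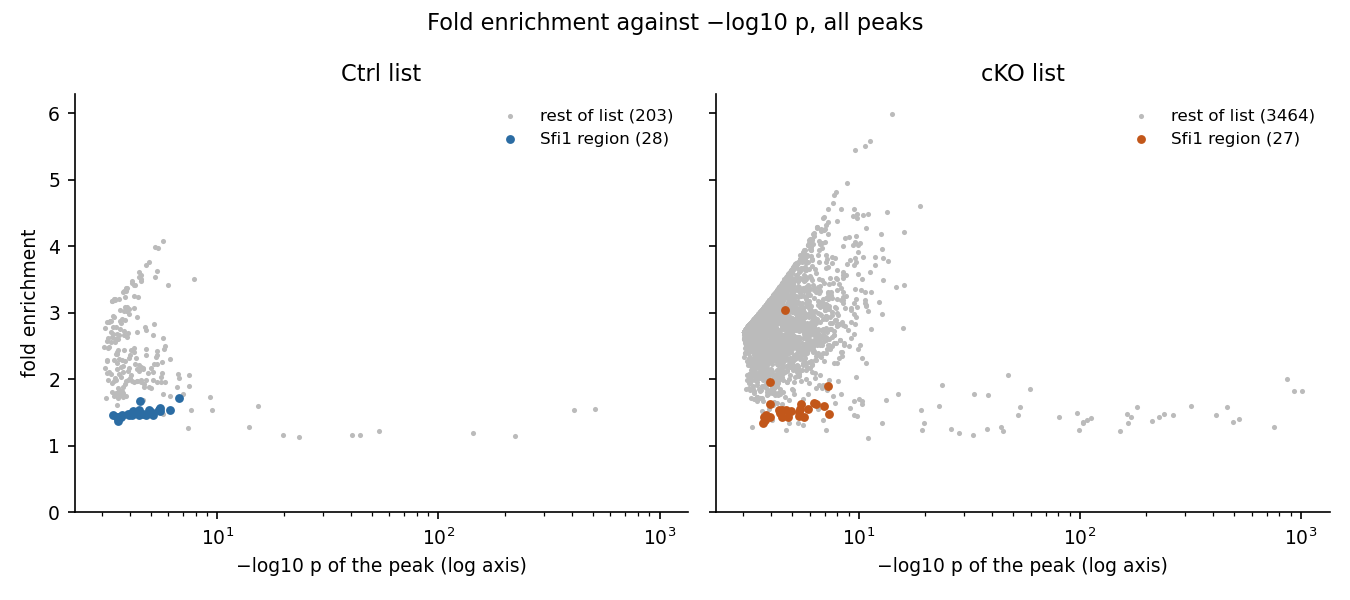
Fold enrichment against −log10 p (log axis) for every peak of the Ctrl list (left) and the cKO list (right), with peaks at Sfi1 coloured and the rest in grey. The 28 Ctrl and 26 of the 27 cKO members lie below a fold of 2, lower than most other peaks at the same −log10 p.

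The Ctrl peaks of highest fold were at 3186274 to 3186584 (fold 1.72), 3199074 to 3200027 (1.68) and 3129290 to 3130088 (1.56), and the lowest was at 3159530 to 3160146 (1.37). The first of these had the highest −log10 q of the Ctrl members, 2.10, and had no overlapping cKO peak. The next in −log10 q were at 3135613 to 3135923, with 1.18, and at 3129290 to 3130088, with 0.910. Only 1 of 28 Ctrl members therefore had a q-value under 0.05, against 9.96% of the whole Ctrl list, and 3 had a −log10 q of 0. The same single peak reached a −log10 q of at least 2, against 8.66% of the list.

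The cKO peaks of highest fold were the 204 bp peak in Eif4enif1 (3.04), the 289 bp peak below the genes (1.96) and that at 3199639 to 3200013 in Sfi1 (1.89), and the lowest was at 3135612 to 3135916 (1.35). The highest −log10 q values were 3.02 at 3193182 to 3193488, 3.02 at 3199639 to 3200013 and 2.76 at 3157584 to 3157912, all in Sfi1. Of 27 cKO members, 11 had a q-value under 0.05, against 18.4% of the whole cKO list, and all 11 lay within the gene body. A −log10 q of at least 2 was found for 5 of them, against 10.7% of the list.

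The q-values cannot be set side by side across lists, since each list was adjusted over its own genome-wide background. A Ctrl peak at 3131067 to 3131392 with a −log10 p of 5.43 had a −log10 q of 0.864. A cKO peak at 3150790 to 3151362 with a −log10 p of 5.44 had a −log10 q of 1.50. Of these peaks of nearly equal p-value, the cKO one thus had the smaller q-value.

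Within controls, most of the stronger p-values, though not the strongest, lay at the lower end of the locus. The 8 Ctrl peaks up to 5 kb into Sfi1, which include those in Pisd-ps1, had −log10 p values of 4.73 to 6.10, and 7 of them were at 5 or above. Of the 20 Ctrl peaks further into the gene, 1 was at 5 or above, and their median was 4.12. That 1 peak, at 3186274 to 3186584, had the highest −log10 p of all Ctrl members, 6.71. In cKO the order was the other way: 1 of 6 was at 5 or above up to 5 kb into Sfi1 and 10 of 21 beyond it. The boundary at 5 kb was chosen after these values were seen, and the difference was not tested.

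Of the 28 Ctrl peaks, 16 overlapped a cKO peak by at least 1 bp (57.1%, against 42.4% of the whole Ctrl list). Of the 27 cKO peaks, 16 overlapped a Ctrl peak (59.3%, against 2.81% of the whole cKO list, a share that the much shorter Ctrl list keeps low). They formed 17 pairs, because 1 peak in each list had a pair of partners. The peaks shared 7215 bp, which was 43.5% of the Ctrl and 49.5% of the cKO bases here and 30.1% of the 23952 bp covered by either. In the rest of the lists 2.45% of the bases covered by either were shared, which the unequal lengths of the lists also limit. Peaks also lay much closer together here (median gaps of 1.16 kb in Ctrl and 1.80 kb in cKO) than elsewhere (2.27 Mb and 0.421 Mb). Such density alone makes an overlap of 1 bp more likely. With overlap of at least 50% of both peaks required, 7 peaks in each list were matched. The gene was chosen on both lists, so this overlap is a description.

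Several pairs had the same start to within a few bases. The starts of 5 pairs differed by at most 2 bp: Ctrl peaks starting at 3135613, 3155401, 3159530, 3171339 and 3176874 faced cKO peaks starting at 3135612, 3155403, 3159529, 3171341 and 3176873. Starts that close were also found in 11 of the 82 pairs in the rest of the lists. At most 1 bp apart were 3 of 17 starts here and 11 of 82 elsewhere. Over all 17 pairs, 8 starts and 3 ends differed by at most 10 bp, and 9 pairs had at least 1 such boundary (52.9%). Among 82 pairs in the rest of the lists, 40 did (48.8%), a share close to that at Sfi1. Both ends were that close in 2 pairs at Sfi1 and in 10 elsewhere. By starts alone the shares were 47.1% and 29.3%, and by ends 17.6% and 31.7%.

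The pair at 3155401 to 3155860 (Ctrl) and 3155403 to 3155868 (cKO) had 458 bp in common and folds of 1.48 and 1.52. The pair at 3135613 to 3135923 and 3135612 to 3135916 had 304 bp in common, and its folds of 1.54 and 1.35 differed most in the Ctrl direction. The pair near the upper end of the gene, at 3199074 to 3200027 and 3199639 to 3200013, had folds of 1.68 and 1.89 and differed most in the cKO direction. The weakest match, between 3151343 to 3151525 and 3150790 to 3151362, shared 20 bp.

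Fold enrichment in the overlapping pairs was similar in both lists. It was higher in cKO in 10 of 17 pairs and lower in 7, and the median difference, cKO minus Ctrl, was 0.0287, with single pairs from -0.192 to 0.219. The medians of the pairs were 1.48 in controls and 1.50 in cKO. In the 82 pairs elsewhere the fold was higher in cKO in 57, with a median difference of 0.159. The −log10 p was higher in cKO in 11 of the 17 pairs here and in 63 of the 82 pairs elsewhere. Each list was scored against its own background and is the only list of its genotype, so these differences carry no error and were not tested.

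**Figure D5:**
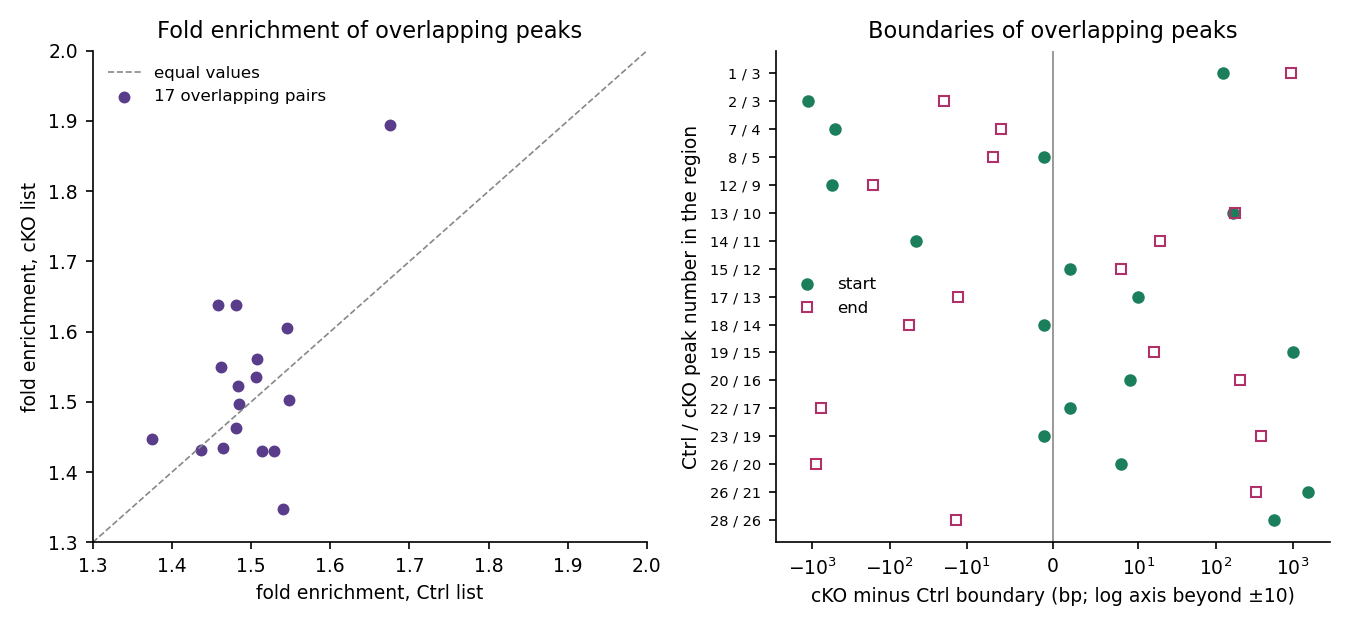
Left, fold enrichment in the Ctrl and cKO lists for the 17 overlapping pairs at Sfi1, with a dashed line at equal values. Right, the distance in bp from the Ctrl to the cKO start (circles) and end (squares) of each pair, linear within 10 bp and logarithmic beyond; 10 of 17 pairs lie above the dashed line, and 8 starts lie within 10 bp of 0.

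Peaks without a partner resembled those with one in fold. The 12 unmatched Ctrl peaks had a median fold of 1.48 and the 16 matched ones 1.50. The 11 unmatched cKO peaks had a median of 1.54 and the 16 matched ones 1.51. Unmatched peaks were narrower, with median widths of 396.5 bp against 533 bp in controls and 334 bp against 486.5 bp in cKO. A wider peak more readily shares 1 bp with another, so the matching rule itself favours this difference, and nothing is read from it.

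Unmatched Ctrl peaks were 223 to 2400 bp from the nearest cKO peak, and 6 of 12 were within 1 kb of one. The widest were at 3146123 to 3147090 (968 bp), 3129290 to 3130088 (799 bp), 3156448 to 3157057 (610 bp, fold 1.49), 3140508 to 3140991 (484 bp, fold 1.44) and 3182668 to 3183146 (479 bp, fold 1.53). These were followed by peaks at 3181015 to 3181411 (fold 1.54), 3132928 to 3133323 (1.46), 3131067 to 3131392 (1.54), 3141679 to 3141998 (1.44) and 3186274 to 3186584 (1.72). The remaining pair, at 3167377 to 3167650 and 3132077 to 3132316, had folds of 1.47 and 1.47.

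Of the 11 unmatched cKO peaks, 8 lay in Sfi1 and 3 in the flanks. Those in the gene were the peak over the start of Gm33862, the 4 in the widest Ctrl gap, and peaks at 3143281 to 3143785 (505 bp, fold 1.44), 3142322 to 3142572 (251 bp, fold 1.39) and 3173548 to 3173844 (297 bp, fold 1.53). The peak at 3143281 to 3143785 had a −log10 q of 1.61. The flanking ones included the peak in Eif4enif1, which lay 36.7 kb from the nearest Ctrl peak.

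Sp110 and Sp140, neighbouring nuclear body protein genes on chromosome 1 with the next most peak bases in controls, together held 8 Ctrl peaks and 9 cKO peaks. Their median folds, 1.97 and 1.84, were above the 1.49 and 1.53 at Sfi1. They were also below the medians of 2.29 and 2.83 in the Ctrl and cKO lists outside the Sfi1 interval. Of these, 5 peaks in each list overlapped the other list (62.5% of the Ctrl and 55.6% of the cKO peaks), shares close to those at Sfi1. Median widths in Sp110 and Sp140, 498.5 bp (Ctrl) and 470 bp (cKO), were above the 451 bp and 401 bp at Sfi1. Widths of at least 500 bp were found for 4 of 8 Ctrl and 2 of 9 cKO peaks there. At Sfi1 they were found for 11 of 28 and 11 of 27. Wide peaks were thus not particular to Sfi1. The bodies of 8 annotated Speer4 genes held 4 Ctrl peaks, with a median fold of 1.92, and 1 cKO peak, with a fold of 1.80. Folds low for their list were thus not particular to Sfi1 either, though the medians at Sfi1 were lower still. No difference between these loci and Sfi1 was tested.

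Genes of other centrosome proteins were counted for peaks in their bodies. Of 37 listed genes, 0 held a Ctrl peak, where 0.260% of protein-coding genes held one, and 4 held a cKO peak, where 5.47% did. Among genes of centriole duplication, 1 of 10 did: Sass6, which encodes the cartwheel protein of new centrioles (chromosome 3, 116606618 to 116606826, fold 2.46). Of 4 genes of other centrin binders and the distal lumen, Poc1a, a centriole stability gene, did (chromosome 9, 106316709 to 106316987, fold 2.72). Of 8 appendage genes, Cep89 (chromosome 7, 35433087 to 35433412, fold 3.10) and Cep128 (chromosome 12, 2 peaks with folds of 2.76 and 2.77) did. The 4 centrin genes Cetn1 to Cetn4, whose products SFI1 binds, held 0 peaks, as did 7 genes of the pericentriolar material, which nucleates microtubules, 3 of the centriolar satellites and Usp9x, a deubiquitinase gene. With 37 genes both background shares correspond to few genes, and nothing is read from these counts.

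The folds of those 5 cKO peaks, 2.46 to 3.10, all lay above the highest fold inside Sfi1, 1.89, and none had a q-value under 0.05. Nsd1, the targeted gene, held 0 peaks in either list, which says nothing of its deletion. Of 27 marker genes of cortical cell types, 0 held a Ctrl peak and 2 held a cKO peak (Rbfox3 of neurons and Mog of oligodendrocytes), beside the same 0.260% and 5.47% of all protein-coding genes. Peak lists do not measure expression, so the tissue label was not checked by them.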

How the data were processed

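H3K36me2 and input chromatin of 12 libraries was profiled after papain dissociation, formaldehyde fixation, micrococcal nuclease digestion and sonication, per the labels' protocols; peak positions came from 2 broad peak lists, 1 per genotype. Cutadapt, Bowtie2 2.4.4, MACS2 and mm10 were named without roles or settings, per the submitters' processing notes; for duplicate handling, thresholds and pooling, the setting is not given in the sources used here. Each deposited row holds a fold enrichment, the authors' ratio over local background, with a −log10 p and a −log10 q from the authors' caller. The lowest −log10 p was 3.08 (Ctrl) and 3.02 (cKO). Both lists were converted to 1-based positions and annotated with a RefSeq table of GRCm38.p6, whose chromosome coordinates mm10 shares, without strand or exons (49943 genes, 21887 protein-coding). Peaks matched when they shared at least 1 bp. The matching code was run on shifted copies of listed peaks, placed either to overlap or to lie far away. Its outcome was fixed by construction, so this checked the code alone. No statistical test was run, since each genotype had 1 list. The gene, the lists and the choices were made with earlier results of these data known. Full positions were given for the widest, highest, lowest, outermost and unmatched peaks. Alternatives were the gene body alone, a −log10 q of at least 2, joining of peaks under 1000 bp apart, overlap of at least 50% of both peaks and a distance of up to 500 bp. Python 3.11.15, pandas 2.3.3, numpy 2.4.6 and matplotlib 3.10.9 were used.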

Additional observations from a re-analysis of the deposited data

How the results depend on the processing

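When only peaks with a −log10 q of 2 or more were kept, 1 Ctrl peak of 311 bp (fold 1.72) and 5 cKO peaks over 2166 bp were left at the locus, and 0 peaks of either list were matched. With peaks under 1000 bp apart joined, the Ctrl peaks became 15 over 25722 bp, and the widest, at 7439 bp, ran from Pisd-ps1 into Sfi1 (3127012 to 3134450). The cKO peaks became 21 over 18763 bp, so the lists were less alike in number and bases than as deposited. Joining added the gaps to the bases by construction. With overlap of at least 50% of both peaks required, 7 Ctrl and 7 cKO peaks were matched. Counting those joined cKO values, 17 of 28 recomputed values stayed within 1.5 times the reported count or bases, or within 1 SD of the members' folds. No paired analysis was possible because the lists hold no values per library, so replicates could not be left out either. Depth was unknown and limits every count of peaks.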
